A study of Homo sapiens with 14 samples.

Results

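Teneurins and latrophilins are a pair of cell-surface protein families that bind each other across the gap between neighbouring cells. The 7 human genes of the families, TENM1, TENM2, TENM3 and TENM4 for the teneurins and ADGRL1, ADGRL2 and ADGRL3 for the latrophilins, were taken by symbol from 62749 genes in RNA sequencing of bladder cancer xenografts. All 7 were found and all 7 passed the filter on low counts, which kept 22560 genes. The genes were chosen with results of these libraries known, because TENM1 had stood out in the comparison of FASN knockdown and control tumours after smoke medium. The values of that comparison are therefore given as a description, with no p-value for any member.

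Teneurins are single-pass membrane proteins with a very large outer part that holds EGF-like repeats, a propeller and a barrel of YD repeats. Latrophilins are adhesion G protein-coupled receptors with a lectin domain and an olfactomedin domain at the outer end, and they are known as neuronal receptors of the spider toxin alpha-latrotoxin. In the nervous system a teneurin on one cell and a latrophilin on the other help to choose and hold synaptic partners, together with FLRT proteins that bind the olfactomedin domain. Both families are also expressed outside the nervous system, and a role in bladder tumours is not assumed here.

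The libraries were made from frozen xenograft tissue grown in mice from UMUC3, a cell line of human bladder cancer. The 4 groups were FASN knockdown cells in regular medium (n = 3), control cells titled as carrying a control hairpin in regular medium (n = 3), FASN knockdown cells after exposure to 10% cigarette smoke medium (CSM) before engraftment (n = 4) and control cells after the same medium (n = 4). FASN, the target of the knockdown (KD), codes for fatty acid synthase, which builds palmitate. The labels give neither the knockdown method nor the number of clones, the mouse strain, the exposure time or whether each library is a separate animal. The p-values therefore speak of the spread between libraries, part of which may be technical.

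Summed counts per library ranged from 15810287 to 45209466, and RN7SL1 and RN7SL2, which code for the 7SL RNA, took 2.64% to 25.6% of them. FASN stood at 121, 99.9 and 132 CPM (counts scaled to the size of each library) in the FASN knockdown libraries, against 571, 404 and 379 CPM in control libraries. After CSM it stood at 220, 166, 301 and 479 CPM in FASN KD-labelled libraries, against 456, 479, 423 and 366 CPM in the control libraries. Replicate 4 of the FASN KD-labelled libraries after CSM was thus at 111% of the control mean in the same medium, which goes against its label. The tumour markers VIM, CDH2, KRT8, KRT18 and ZEB1 summed to 1594 to 3176 CPM over all libraries, and the 10 urothelial markers, of which 4 were below 1 CPM everywhere and UPK3A and KRT20 had no counts, summed to 10.9 to 31.7 CPM. Mouse transcripts were not quantified, and in bulk tissue fewer cells of a type and less RNA per cell cannot be told apart.

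TENM1 and ADGRL3 carried the results, so the 250 bases upstream of their starts are shown first. They come from RefSeq (GRCh38.p14), which had windows for 6 of the 7 genes and none for ADGRL1. The ADGRL3 window lies at chr4:61200076-61200325 on the plus strand, before the start that is farthest upstream. TENM1 has a distal start with a window at chrX:125204313-125204562 and a proximal one with a window at chrX:124963818-124964067, both on the minus strand. Each is printed 5′ to 3′ as transcribed, with matches to 5 motifs in capitals: the GC box GGGCGG, the CCAAT box CCAAT, the TATA box TATAAA, the aryl hydrocarbon receptor core GCGTG, which is known from smoke responses, and the SREBP element TCACNCCAC of lipid genes, each searched on both strands.
ADGRL3 upstream window: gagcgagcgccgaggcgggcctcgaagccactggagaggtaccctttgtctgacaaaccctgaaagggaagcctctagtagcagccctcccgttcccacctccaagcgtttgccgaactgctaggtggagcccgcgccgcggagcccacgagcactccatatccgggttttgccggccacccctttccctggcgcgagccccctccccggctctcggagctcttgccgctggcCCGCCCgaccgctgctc
TENM1 distal window: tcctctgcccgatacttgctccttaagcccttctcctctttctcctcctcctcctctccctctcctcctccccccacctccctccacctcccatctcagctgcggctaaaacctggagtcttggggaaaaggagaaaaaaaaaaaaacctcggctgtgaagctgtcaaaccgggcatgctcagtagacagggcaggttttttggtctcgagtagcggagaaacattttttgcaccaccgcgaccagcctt
TENM1 proximal window: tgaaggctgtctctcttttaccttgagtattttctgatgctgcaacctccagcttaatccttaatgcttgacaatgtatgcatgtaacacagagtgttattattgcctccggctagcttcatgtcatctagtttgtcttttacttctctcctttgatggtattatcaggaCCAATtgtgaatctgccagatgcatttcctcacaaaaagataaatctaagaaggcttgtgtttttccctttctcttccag

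The ADGRL3 window held 1 GC box, read here from the other strand, and 23 CpG dinucleotides at 68.0% G and C. That is more CpG than in 74.2% of 35114 RefSeq windows of the same length, whose median was 11. The distal TENM1 window held 8 CpG and none of the 5 motifs. The proximal TENM1 window held 1 CpG, more than in 6.06% of the windows, and 1 CCAAT box, and it ends in a run of pyrimidines closed by the letters cag. Over the 35114 windows the GC box occurred in 42.6%, the CCAAT box in 32.0%, the TATA box in 10.7%, the aryl hydrocarbon receptor core in 32.2% and the SREBP element in 0.883%. RefSeq has another ADGRL3 window at chr4:61201922-61202171, not printed here, with 63.2% G and C, 16 CpG, 1 GC box, 1 CCAAT box and 1 aryl hydrocarbon receptor core. None of the 3 windows printed held the TATA box, the aryl hydrocarbon receptor core or the SREBP element, which says only that these letters are not there. In GENCODE release 29, 0 listed transcripts start within 50 bases of the RefSeq start of the printed ADGRL3 window or the distal TENM1 window. The number was 1 for the other ADGRL3 window and 2 for the proximal TENM1 window. Whether any of these windows drives the measured RNA was not tested.

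In GENCODE release 29 on GRCh38, ADGRL3 spans chr4:61201258-62078335 on the plus strand and TENM1 spans chrX:124375903-124963817 on the minus strand. TENM3 lies on the same chromosome as ADGRL3, at chr4:182143987-182803024 on the plus strand. TENM2 lies at chr5:167284799-168264157 on the plus strand and TENM4 at chr11:78652831-79440948 on the minus strand. ADGRL2 lies at chr1:81306160-81992436 on the plus strand, and ADGRL1 at chr19:14147743-14206187 on the minus strand. ADGRL1 is short, at 58.4 kb, whereas the other 6 genes span 587.9 to 979.4 kb.

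Of the receptors, ADGRL3 was much lower in every FASN knockdown library. ADGRL3, the latrophilin that binds FLRT3 and teneurins at synapses, had 2.63, 2.96 and 1.19 CPM in FASN knockdown libraries, against 101, 137 and 43.4 CPM in control libraries. The groups did not overlap, and the highest knockdown value was far under the lowest control value. The counts behind these levels were 75, 35 and 41 in FASN knockdown libraries and 4459, 4876 and 1651 in control libraries.

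ADGRL3 averaged 2.26 ± 0.941 CPM in FASN knockdown libraries and 93.9 ± 47.4 CPM in control libraries (SD, n = 3 each). It fell by 5.41 ± 0.746 on the log2 scale (SE; 95% interval -7.0 to -3.82), which is 42.5-fold lower, with an adjusted p of 0.00542 in edgeR's quasi-likelihood test. By p it stood at rank 10 of the 22560 genes. It was the only one of the 7 members called, against 0.204% of all genes tested (46, of which 40 or 0.177% were lower). The call ended without the 2 libraries that had over 15% 7SL, at a log2 fold change of -5.62 and an edgeR adjusted p of 0.0504, the highest over 20 alternatives.

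**Figure D1:**
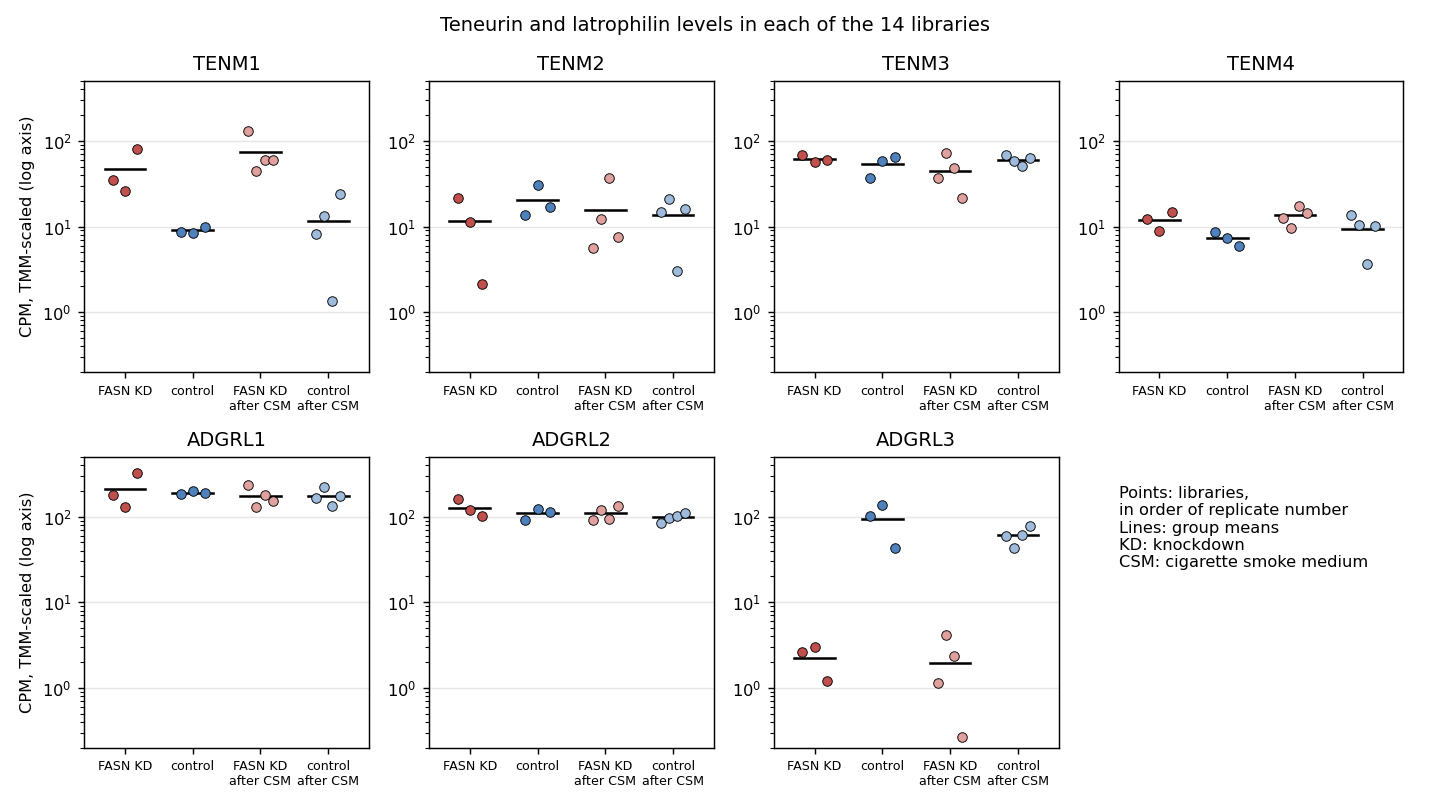
Levels of the 4 teneurins and 3 latrophilins in CPM on TMM-scaled totals (log axis) in each of the 14 libraries, by group, with group means as lines. ADGRL3 lies between 0.264 and 4.14 CPM in the 7 FASN KD-labelled libraries and between 43.4 and 137 CPM in the 7 control libraries. TENM1 lies above every control library of the same medium in all 7 FASN KD-labelled libraries. The libraries after CSM are those of the comparison that led to the choice of the family, so their values are a description.

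ADGRL1, the receptor through which alpha-latrotoxin and the teneurin-2 ectodomain were first linked to the family, did not follow ADGRL3. It had 181, 129 and 321 CPM in FASN knockdown libraries, against 181, 200 and 189 CPM in control libraries. ADGRL2, which in the mouse hippocampus meets teneurin-3 on incoming axons, had 162, 120 and 100 CPM in FASN knockdown libraries, against 91.2, 124 and 114 CPM in control libraries. Both pairs of groups overlapped.

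The ADGRL1 log2 fold change of FASN knockdown against control was 0.15 ± 0.307 (SE; 95% interval -0.51 to 0.80), with an edgeR adjusted p of 0.957. That of ADGRL2 was 0.22 ± 0.231 (SE; 95% interval -0.28 to 0.71), with an edgeR adjusted p of 0.88. Neither passed the test, and the intervals bound any difference of these receptors to under 1 on the log2 scale, where that of ADGRL3 lay past -3.82. The fall of ADGRL3 against ADGRL1 or ADGRL2 was not tested as a difference.

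On the ligand side, TENM1 stood higher in every FASN knockdown library, but did not pass the test across all genes. TENM1, the X-linked teneurin, had 34.6, 26.0 and 81.1 CPM in FASN knockdown libraries, against 8.68, 8.37 and 9.94 CPM in control libraries. The groups did not overlap, and the knockdown libraries varied far more among themselves than the control libraries. Replicate 3 of the FASN knockdown, with the highest TENM1, also had the lowest 7SL share of that group (3.89%), and replicate 2, with the lowest TENM1, had the highest (25.6%).

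TENM1 averaged 47.2 ± 29.6 CPM in FASN knockdown libraries and 9.00 ± 0.835 CPM in control libraries (SD, n = 3 each). Its log2 fold change was 2.40 ± 0.704 (SE; 95% interval 0.90 to 3.89), with a raw p of 0.0038 and an adjusted p of 0.264 in edgeR's quasi-likelihood test. DESeq2 gave 2.43 with an adjusted p of 0.0167, and edgeR without a filter on low counts also called the gene. With the 7SL share as a covariate the log2 fold change was 2.49, with an edgeR adjusted p of 0.0731, and over 20 alternatives the adjusted p ran from 5.33e-12 to 0.994.

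TENM4, known in the mouse for its part in myelination, also had groups that did not overlap, by a narrow gap. It had 12.3, 8.98 and 14.8 CPM in FASN knockdown libraries, against 8.61, 7.32 and 5.95 CPM in control libraries, a log2 fold change of 0.73 ± 0.385 (SE) with an edgeR adjusted p of 0.616. Groups without overlap were thus seen in 3 of the 7 members, against 11.8% of all genes tested.

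TENM2, the teneurin also named Lasso as a ligand of ADGRL1, had 21.6, 11.4 and 2.15 CPM in FASN knockdown libraries, against 13.6, 30.4 and 16.7 CPM in control libraries. TENM3, known in the mouse for the wiring of visual and hippocampal circuits, had 68.4, 56.0 and 59.4 CPM in FASN knockdown libraries, against 37.2, 57.9 and 64.7 CPM in control libraries. Both overlapped, with log2 fold changes of -0.79 ± 0.788 (SE) for TENM2 and 0.20 ± 0.332 (SE) for TENM3 and edgeR adjusted p of 0.866 and 0.942. The median log2 fold change of the 7 members was 0.20, against 0.02 over all genes tested.

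On TPM, which is scaled by length and by the whole library, the groups of TENM1 and TENM4 overlapped. TENM1 ranged from 0.521 to 7.10 TPM in FASN knockdown libraries and from 0.413 to 0.786 TPM in control libraries. The groups of ADGRL3 stayed apart on this scale, at 0.109 to 0.794 TPM in FASN knockdown libraries and 7.83 to 18.3 TPM in control libraries. Those of TENM2, which overlapped on CPM, were apart on TPM, at 0.394 to 1.13 TPM in FASN knockdown libraries and 1.22 to 2.73 TPM in control libraries. The median log2 fold change of all genes on log2(TPM + 1) was also below 0, at -0.14. The share of all genes with groups apart on TPM was not computed, so nothing is read from this gap of TENM2. Over transcripts of at least 4000 bases alone, a choice made after the data had been seen, the groups of TENM1 (0.521 to 7.10 TPM in FASN knockdown libraries, 0.413 to 0.485 TPM in control libraries) and ADGRL3 were apart. Those of TENM2 (0.285 to 1.13 TPM in FASN knockdown libraries, 1.04 to 2.08 TPM in control libraries) and the other members overlapped there.

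The same comparison after CSM is the one that led to the choice of the family, so its values are a description. TENM1 had 131, 44.3, 60.6 and 59.4 CPM in FASN KD-labelled libraries after CSM, against 8.15, 13.2, 1.33 and 24.0 CPM in control libraries after CSM. Its lowest control value lay in replicate 3, which had a 7SL share of 16.3%, the highest of that group. ADGRL3 had 1.15, 4.14, 2.33 and 0.264 CPM in FASN KD-labelled libraries after CSM, against 59.4, 43.4, 61.0 and 77.7 CPM in control libraries after CSM.

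Neither gene's groups overlapped. The fitted log2 fold change of FASN knockdown against control after CSM was 2.66 ± 0.614 (SE) for TENM1 and -4.96 ± 0.628 (SE) for ADGRL3. It was 0.18 ± 0.676 for TENM2, -0.44 ± 0.288 for TENM3, 0.51 ± 0.331 for TENM4, 0.01 ± 0.266 for ADGRL1 and 0.16 ± 0.20 for ADGRL2 (SE). The rule of the adjusted p called 2 of the 7 members (1 higher, 1 lower), against 1.17% of all genes tested (0.43% higher and 0.74% lower). On CPM, groups did not overlap in 2 members, against 16.2% of all genes, and nothing is read from these counts. Without replicate 4 of the FASN KD-labelled libraries after CSM, the log2 fold change was 2.77 for TENM1 and -4.57 for ADGRL3.

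**Figure D2:**
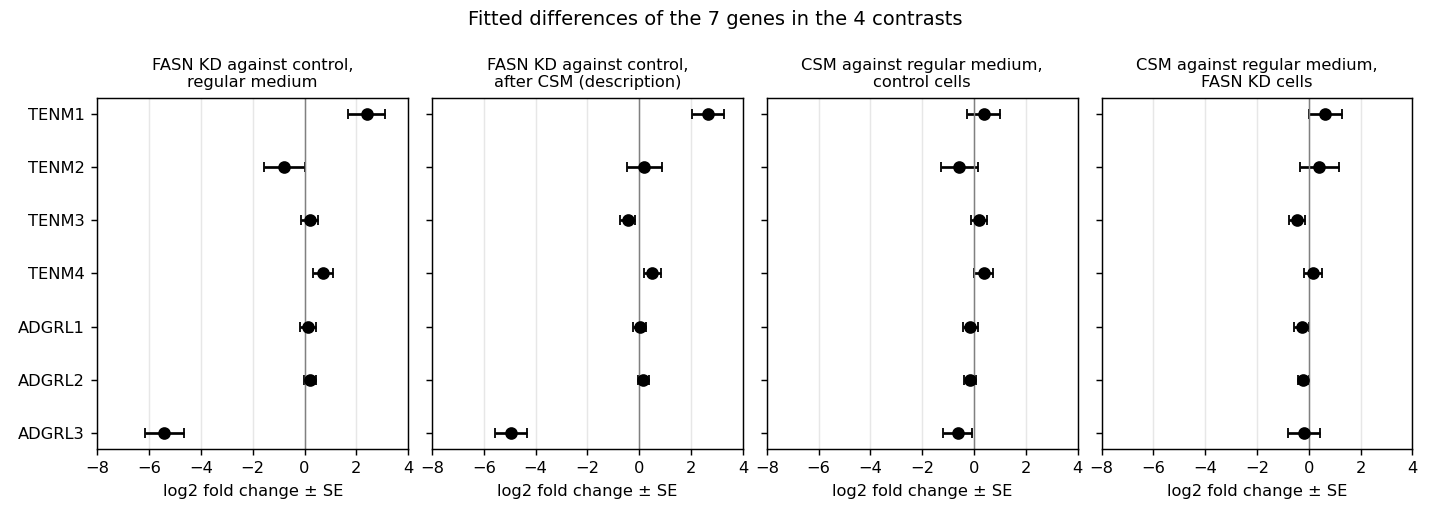
Fitted log2 fold changes (points) with their standard errors (bars) of the 7 genes in the 4 contrasts, first-named group over second, from edgeR. ADGRL3 sits at -5.41 in regular medium and -4.96 after CSM for FASN knockdown against control, TENM1 at 2.40 and 2.66, and no gene lies beyond 0.79 in size elsewhere.

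TENM2 had 5.65, 12.2, 36.7 and 7.56 CPM in FASN KD-labelled libraries after CSM, against 14.7, 20.9, 3.06 and 16.0 CPM in control libraries after CSM. TENM3 had 37.3, 71.3, 48.3 and 21.3 CPM in FASN KD-labelled libraries after CSM, against 69.0, 58.6, 51.2 and 63.5 CPM in control libraries after CSM. TENM4 had 12.6, 9.51, 17.5 and 14.3 CPM in FASN KD-labelled libraries after CSM, against 13.7, 10.3, 3.69 and 10.2 CPM in control libraries after CSM. All 3 of these teneurins overlapped between the groups, and the low values of TENM2 and TENM4 among control libraries after CSM were in replicate 3, the library in which TENM1 was lowest.

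ADGRL1 had 231, 130, 180 and 153 CPM in FASN KD-labelled libraries after CSM, against 164, 219, 131 and 175 CPM in control libraries after CSM. ADGRL2 had 90.5, 121, 95 and 133 CPM in FASN KD-labelled libraries after CSM, against 84.0, 95.8, 103 and 112 CPM in control libraries after CSM. Both receptors overlapped. Whether the effect of the knockdown differed between the media was tested for the members other than TENM1. That test shares the libraries after CSM with the comparison that led to the choice of the family. For ADGRL3 the knockdown effect after CSM, less the one in regular medium, was 0.45 ± 0.846 on the log2 scale (SE), with an edgeR adjusted p of 0.978 (95% interval -1.35 to 2.25).

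The FASN KD-labelled libraries after CSM differed in FASN itself, so both genes are given beside it. Replicate 4, with FASN at 111% of the control mean, had 59.4 CPM of TENM1 and 0.264 CPM of ADGRL3, which was the lowest ADGRL3 value of all 14 libraries. Replicate 2, with the lowest FASN of the group (38.5%), had 44.3 CPM of TENM1, the lowest of the group, and 4.14 CPM of ADGRL3, the highest of the group.

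**Figure D3:**
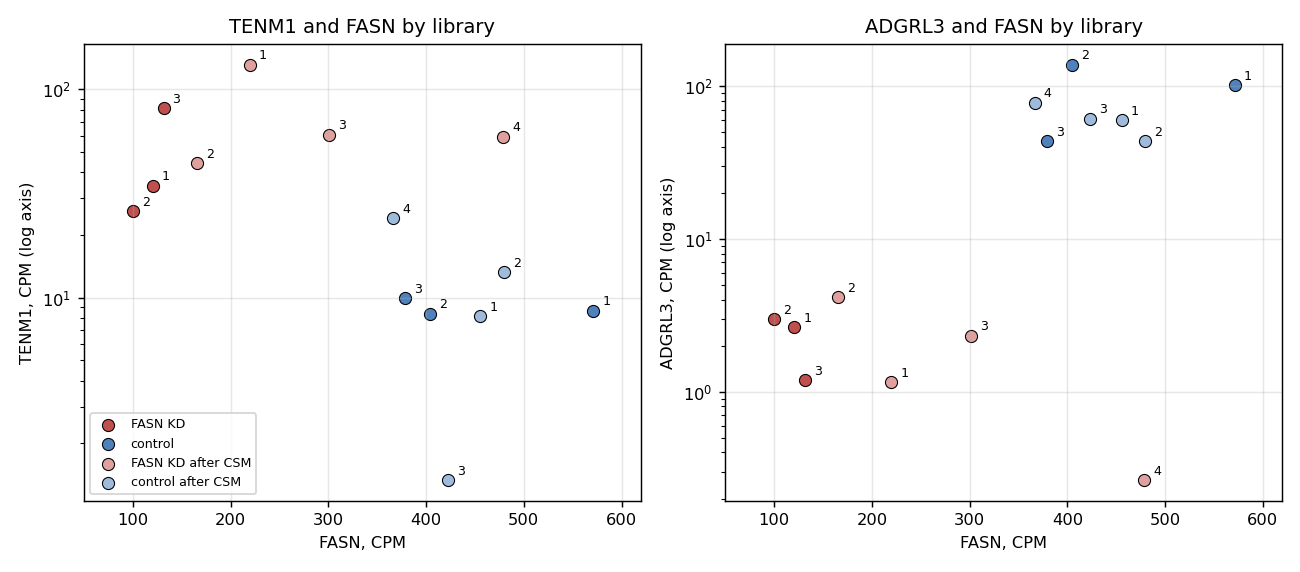
TENM1 (left) and ADGRL3 (right) in CPM on a log axis against FASN in CPM, 1 point per library with its replicate number, coloured by group. Replicate 4 of the FASN KD-labelled libraries after CSM has 479 CPM of FASN, among the control libraries, but 59.4 CPM of TENM1 and 0.264 CPM of ADGRL3, among the FASN knockdown libraries.

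No tested member was called between cells exposed to CSM before engraftment and cells in regular medium. In control cells no gene was called of the 22560 (0% of genes tested) by edgeR, with 316 genes at an unadjusted p under 0.05 and 6 genes called by DESeq2. ADGRL3 averaged 60.4 ± 14.0 CPM in control libraries after CSM (SD, n = 4) and 93.9 ± 47.4 CPM in control libraries in regular medium (SD, n = 3), a log2 fold change of -0.64 ± 0.560 (SE; 95% interval -1.83 to 0.56) with an edgeR adjusted p of 1. The other tested members lay between -0.56 for TENM2 and 0.38 for TENM4, each with an edgeR adjusted p of 1. No member had groups without overlap, against 4.07% of all genes.

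In FASN knockdown cells edgeR again called no gene of the 22560 (0% of genes tested), with 1503 genes at an unadjusted p under 0.05 and 52 genes called by DESeq2, none of them a member. ADGRL3 averaged 1.97 ± 1.67 CPM in FASN KD-labelled libraries after CSM (SD, n = 4) and 2.26 ± 0.941 CPM in FASN knockdown libraries in regular medium (SD, n = 3), a log2 fold change of -0.19 ± 0.627 (SE; 95% interval -1.52 to 1.15) with an edgeR adjusted p of 0.983. TENM3 had the largest change in size among the tested members, at -0.46 ± 0.309 (SE) with an edgeR adjusted p of 0.828. No member had groups without overlap, against 5.92% of all genes.

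TENM1 is given for these contrasts as a description, since they share libraries with the comparison that led to its choice. Its log2 fold change of CSM against regular medium was 0.38 ± 0.634 (SE) in control cells and 0.64 ± 0.632 (SE) in FASN knockdown cells. In both kinds of cell its groups overlapped.

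Levels between genes were compared per length, on TPM. ADGRL1 averaged 30.1 ± 18 TPM and ADGRL2 25.0 ± 9.14 TPM over the 14 libraries (SD), and these receptors filled ranks 1 and 2 in all 14. TENM3 followed at 9.16 ± 4.64 TPM, then ADGRL3 at 5.53 ± 6.2, TENM4 at 2.91 ± 2.18, TENM1 at 2.78 ± 3.68 and TENM2 at 1.52 ± 1.33 TPM (SD, n = 14). From TENM3 down, each mean lay within 1 SD of its neighbour's, and so did those of ADGRL1 and ADGRL2.

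The places of ADGRL3 and TENM1 in this order differed between knockdown and control libraries. By TPM, ADGRL3 took the last place in 5 of the 7 FASN KD-labelled libraries and rank 5 or 6 in the other 2, whereas it had rank 3 or 4 in all 7 control libraries. TENM1 had rank 4 or 5 in all 7 FASN KD-labelled libraries, and it was last in 6 of the 7 control libraries. The TENM1 counts include the libraries after CSM, whose comparison led to its choice, so they are a description. In regular medium alone the TPM groups of TENM1 overlapped, as given above.

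Short transcripts bear on this order. Over transcripts of at least 4000 bases alone, the means were 19.1 TPM for ADGRL1, 14.4 for ADGRL2, 3.62 for ADGRL3, 2.86 for TENM3, 2.75 for TENM1, 1.27 for TENM2 and 0.562 for TENM4. TENM4 kept 19.3% of its TPM and TENM3 31.3%, since 1 transcript of at least 4000 bases was listed for each and the rest of their TPM lay on shorter ones. TENM1 kept 99.1%.

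**Figure D4:**
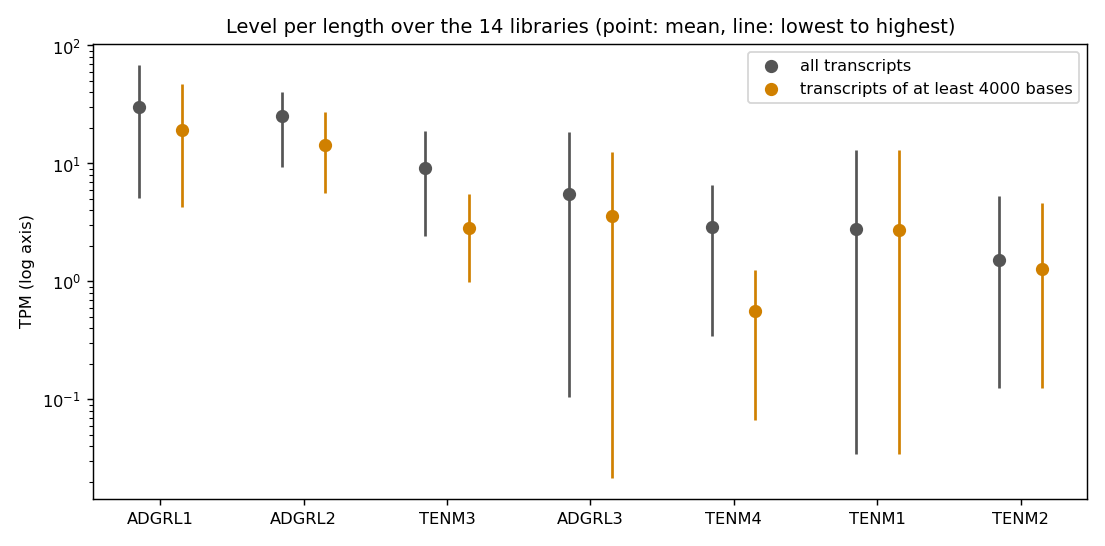
Mean level per length in TPM (points, log axis) with the range from the lowest to the highest of the 14 libraries (lines), over all transcripts and over transcripts of at least 4000 bases. ADGRL1 and ADGRL2 lead on both counts, while TENM3 and TENM4 drop to 2.86 and 0.562 TPM when short transcripts are left out.

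The lower ADGRL3 counts were spread over its transcripts. The files list 19 transcripts, and the longest, ADGRL3-219 with 13738 bases, took 48.5% of the gene's counts over all libraries. Counts rise with transcript length, and on mean TPM ADGRL3-219 (0.897) was below ADGRL3-208 (1.47) and ADGRL3-201 (1.02). ADGRL3-219 is absent from GENCODE release 29, so its start is not given. The others were grouped by their start in that release: 3 transcripts start upstream between chr4:61201258 and chr4:61202142, 12 start in the middle between chr4:61497121 and chr4:61497294, and 1, ADGRL3-201, starts downstream at chr4:61895741.

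ADGRL3-219 had 60.2 counts summed over the 3 FASN knockdown libraries and 5340 over the 3 control libraries. The transcripts with the middle start had 28.1 and those with the upstream start 30.9 counts in FASN knockdown libraries, against 2930 and 775 in control libraries. ADGRL3-201 had 26.8 counts in FASN knockdown libraries and 1692 in control libraries. Each class was lower in the knockdown, and the share of ADGRL3-219 was 39.9% of the gene's counts in FASN knockdown libraries and 48.6% in control libraries. At 35 to 75 counts per knockdown library, spread by Salmon over 19 transcripts, shares in single knockdown libraries are not read further.

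After CSM the pattern was the same in outline. ADGRL3-219 had 164 counts in the 4 FASN KD-labelled libraries after CSM and 4304 in the 4 control libraries after CSM. ADGRL3-201 was listed at 0 in FASN KD-labelled libraries after CSM and had 1620 counts in the control libraries after CSM.

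**Figure D5:**
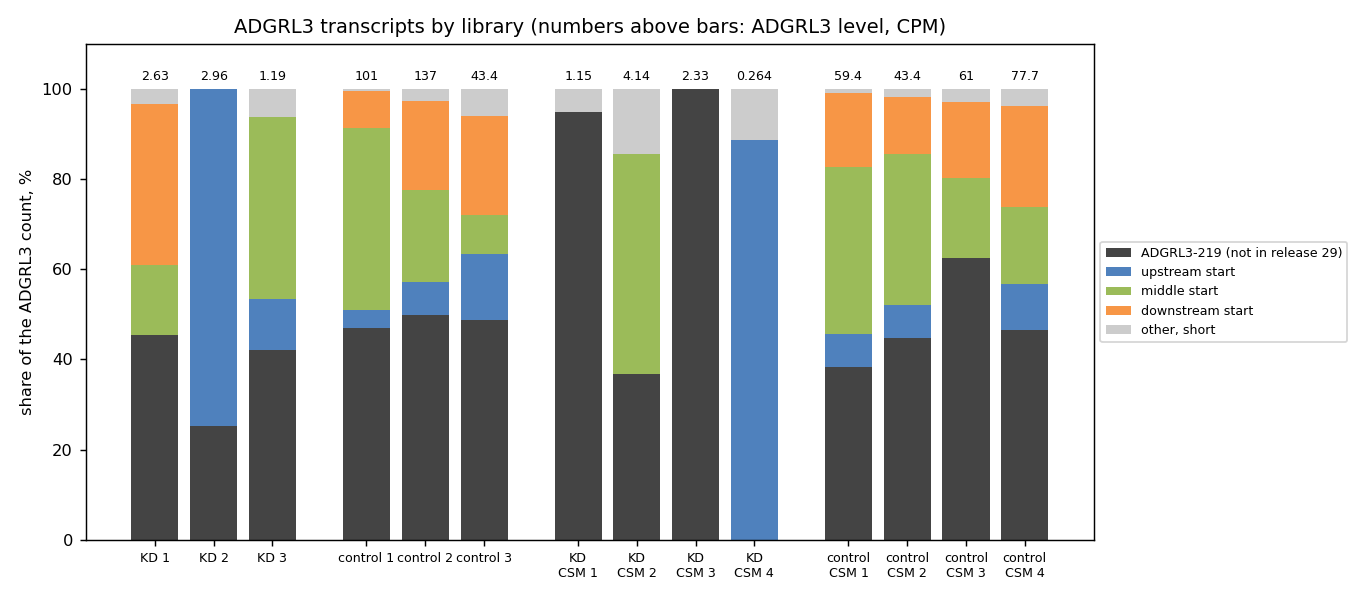
Share of the ADGRL3 count on each class of transcript (stacked bars, in %) in each library, with the ADGRL3 level in CPM above the bar. In the 7 control libraries ADGRL3-219 takes 38.3% to 62.4% and every library but 1 spreads over all classes, whereas the FASN KD-labelled libraries, at 0.264 to 4.14 CPM, range from 0% to 100%.

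TENM1 had 3 transcripts, of which TENM1-202 took 67.3% of its counts over all libraries and TENM1-201 32.7%. Both start at chrX:124963817 in release 29, next to the proximal window printed above. The TENM1-202 of the deposited tables is another version, with 13547 bases against 12891 in release 29. The share of TENM1-201 was 40.5% to 67.4% in FASN knockdown libraries, against 0% to 37.8% in control libraries. After CSM it was 11.3% to 47.4% in FASN KD-labelled libraries, against 0% to 68.4% in control libraries. The groups were thus apart in regular medium and overlapped after CSM, and no test was made of these estimated shares. In control libraries in regular medium they rest on 384, 297 and 378 counts of the gene. How often the shares of other transcripts were apart was not computed, so no change of transcript use is read from them.

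The main transcript of TENM3, TENM4 and ADGRL1 took most of the gene's counts in nearly every library. TENM3-204 took 73.2% to 86.7% of the TENM3 count in FASN knockdown libraries and 71.7% to 76.3% in control libraries. TENM4-201 took 85.2% to 95.3% of the TENM4 count in FASN knockdown libraries and 82.8% to 98.4% in control libraries. ADGRL1-202 took 25.9% to 89.0% in FASN knockdown libraries and 71.5% to 82.1% in control libraries, the widest range of these 3. Counts rise with transcript length, and these transcripts are long. Of the gene's TPM over all libraries, TENM3-204 took 23.3% to 44.2%, TENM4-201 8.97% to 77.3% and ADGRL1-202 22.0% to 68.8%.

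Genes that act with the families were taken as lists. Of the FLRT and UNC5 partners 6 of 7 were tested. None was called by edgeR for FASN knockdown against control in regular medium, at a median log2 fold change of -0.46. By edgeR 1 had an unadjusted p under 0.05, and DESeq2 called 1, UNC5C, named like the other DESeq2 calls below after its values were seen (adjusted p 0.0034). FLRT2 was the most abundant at 11.6 TPM and UNC5B followed at 1.88 TPM over all libraries. Of the neurexin and contactin partners 2 of 4 were tested and edgeR called none, with 1 at an unadjusted p under 0.05 and 1 called by DESeq2 (NRXN3, adjusted p 0.0247). They were low, with NRXN2 at 0.674 TPM and NRXN3 at 0.120 TPM.

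None of the 9 G protein alpha subunits through which adhesion receptors can signal was called by edgeR, at a median log2 fold change of -0.19. By edgeR 2 had an unadjusted p under 0.05, and DESeq2 called 1, GNAI1 (adjusted p 0.0221). GNAS, the stimulatory subunit, averaged 482 TPM and GNAI2, an inhibitory one, 115 TPM. Of 29 other adhesion receptors 19 were tested and edgeR called none, at a median log2 fold change of 0.28, with 5 at an unadjusted p under 0.05. DESeq2 called 1 of them, ADGRG6 (adjusted p 0.0183). ADGRB1 at 61.5 TPM and ADGRE5 at 47.0 TPM were the most abundant. In both comparisons of CSM with regular medium neither edgeR nor DESeq2 called a gene of these lists, with 0 to 2 genes per list at an unadjusted p under 0.05 by edgeR.

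The protein-coding genes whose profile over the 14 libraries was most like that of each member were ranked among 12662 genes by the root mean square difference of gene-centred log2 CPM. For TENM1, whose own profile had a root mean square of 1.69, these were ADAMTS19, a secreted metalloprotease, at 0.57, RYR2, a calcium release channel, at 0.61, and MYLK, the myosin light chain kinase, at 0.69. For ADGRL3, with an own value of 2.86, they were PDE1A, a calmodulin-dependent phosphodiesterase, at 0.99, GRM5, a metabotropic glutamate receptor, at 1.00 and AJAP1, an adherens junction protein, at 1.01. The 14 libraries include those after CSM, whose comparison led to the choice of the family, so these ranks are a description. TENM1 and ADGRL3 differed between knockdown and control libraries, and their profiles include that difference. Nothing is read from the genes nearest to them.

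The other members were ranked in the same way. For ADGRL1, with an own value of 0.35, the nearest genes were SKI at 0.12, WDTC1 at 0.15 and NLGN2, a synaptic adhesion protein, at 0.16. For ADGRL2, with an own value of 0.25, they were ATP2A2 at 0.13, ATP9A at 0.14 and DISP1 at 0.15. For TENM3 they were TRPS1, GAB3 and SORT1 at 0.21 to 0.24 and for TENM4 ZNF577, SERPINF1 and GLIS3 at 0.21 to 0.29.

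Markers of other cell types are given beside these results. They are human transcripts, and mouse transcripts were not quantified, so these sums need not reflect cells of the mouse host. The 10 nerve and glia markers, 6 of them below 1 CPM everywhere, summed to 86.2 to 171 CPM in FASN knockdown libraries, against 82.9 to 86.5 CPM in control libraries. S100B and STMN2 were at 0 in every library. Most of the sum was TUBB3, which averaged 101 ± 41.8 CPM in FASN knockdown libraries and 71.5 ± 1.37 CPM in control libraries (SD, n = 3 each). The 10 fibroblast markers, 6 of them below 1 CPM everywhere, summed to 39.3 to 46.3 CPM in FASN knockdown libraries, against 31.7 to 37.9 CPM in control libraries. The 8 endothelial markers, 7 of them below 1 CPM everywhere, summed to 2.45 to 3.17 CPM in FASN knockdown libraries, against 1.5 to 2.28 CPM in control libraries. The last 2 sums did not overlap. The urothelial sum did not either, at 19.2 to 31.7 CPM in FASN knockdown libraries, against 12.6 to 14.0 CPM in control libraries. The sums of the nerve and glia, tumour, leukocyte and myeloid, skeletal muscle and adipocyte markers overlapped. The leukocyte and myeloid sum was 98.4 to 122 CPM in FASN knockdown libraries, against 82.1 to 130 CPM in control libraries. Of single genes tested, 11.8% had groups that did not overlap, and no such share was computed for sums. The urothelial markers did not move together, and edgeR called none. KRT5 averaged 11.3 ± 7.44 CPM in FASN knockdown libraries and 2.11 ± 1.8 CPM in control libraries (SD, n = 3 each). KRT5, UPK1B, PPARG and FOXA1 had positive log2 fold changes, and GATA3, KRT7 and UPK1A negative ones. The median of the 7 urothelial markers tested was 0.028.

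The fibroblast markers did not move together. ACTA2, smooth muscle actin, averaged 30.1 ± 4.4 CPM in FASN knockdown libraries and 8.99 ± 1.21 CPM in control libraries, whereas THY1 averaged 7.27 ± 2.94 CPM in FASN knockdown libraries and 17.4 ± 3.22 CPM in control libraries (SD, n = 3 each). PDGFRB averaged 0.937 ± 0.439 CPM in FASN knockdown libraries and 4.05 ± 1.14 CPM in control libraries (SD, n = 3 each). The log2 fold changes were 1.74 for ACTA2, -1.27 for THY1 and -2.10 for PDGFRB, with edgeR adjusted p of 0.122, 0.332 and 0.164, and the median of the 7 fibroblast markers tested was -0.50. DESeq2 called ACTA2 and PDGFRB. The part of these markers in the differences of TENM1 and ADGRL3 was not tested.

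After CSM the nerve and glia sum was 88.8 to 126 CPM in FASN KD-labelled libraries, against 97.6 to 131 CPM in control libraries. The fibroblast sum was 16.7 to 37.8 CPM in FASN KD-labelled libraries, against 33.5 to 50.6 CPM in control libraries, and the endothelial sum was 1.68 to 2.41 CPM in FASN KD-labelled libraries, against 1.49 to 2.84 CPM in control libraries. The urothelial sum was 10.9 to 18.9 CPM in FASN KD-labelled libraries, against 12.3 to 18.3 CPM in control libraries. These 4 sums overlapped. THY1 averaged 5.93 ± 1.29 CPM in FASN KD-labelled libraries and 18.5 ± 7.93 CPM in control libraries (SD, n = 4 each), a log2 fold change of -1.65 with an edgeR adjusted p of 0.0409. The part of these markers in the values of TENM1 and ADGRL3 after CSM was not tested.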

How the data were processed

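RNA sequencing libraries of xenograft tissue were used (14 in all). For each library the authors deposited Salmon output for 252048 human transcripts, with TPM and with expected counts, which are unnormalised read estimates. FastQC, cutadapt, Salmon and the build GRCh38 are named per the submitters' processing notes, without versions, and the strand of counting and the release of the annotation are not stated there. The expected counts were summed per gene and rounded.

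In R 4.3.3, edgeR 4.0.16 was run (quasi-likelihood test) with TMM and filterByExpr (minimum count 10, minimum total 15) on all 14 libraries, with a coefficient per group, 10 residual degrees of freedom and a biological coefficient of variation of 0.444. The call was an adjusted p (Benjamini-Hochberg over 22560 genes) under 0.05. CPM are on TMM-scaled totals. Alternatives used DESeq2 1.42.0 and limma 3.58.1. Sequences were read in Python 3.11.15 and figures drawn with matplotlib 3.10.9.

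The members and lists were chosen with earlier results of these data known. The text names the 7 members, of each other list the genes called or else the 2 with the highest TPM, the 3 genes nearest in profile, FASN and 7SL. Some results of this rule are not reported here. No libraries had identical values. Of the marker and partner symbols, MYLPF and ADGRF2 were not matched in the files. Protein sequences were not used here. All intervals of the fits include the spread between the few libraries of each group, so high counts alone did not make them narrow. ADGRL1 had 1518 to 11041 counts per library in regular medium, and its SE for FASN knockdown against control there was 0.307. Low counts limit precision further for ADGRL3 in the libraries labelled FASN knockdown.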

Additional observations from a re-analysis of the deposited data

How the results depend on the processing

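The fall of ADGRL3 in regular medium was called in 19 of 20 alternatives, at log2 fold changes from -5.77 to -3.27, and in all 6 fits without 1 library (-5.77 to -5.06, edgeR adjusted p up to 0.0308). TENM1 was higher in all 20 (0.98 to 2.71) and called in 2 of them. The number of members called in regular medium was 2 with DESeq2 and without a filter on low counts, 0 without the 2 libraries over 15% 7SL, and 1 in each fit without 1 library. After CSM it was 1 with only the 2 groups in the fit, with the replicate block, with the length offset and on log2(TPM + 1) or log2(TPM + 0.1), and 1 to 2 without 1 library, where 2 was kept only without replicate 4 of the control after CSM. The comparison after CSM led to the choice of the family, so nothing is read from its counts of members called. The number of members called stayed at 0 in all 21 alternatives of each comparison of CSM with regular medium. Genes called in all were 11 to 389 in regular medium (46 as reported, DESeq2 346, replicate block 17) and 42 to 1452 after CSM (264 as reported, DESeq2 1452, replicate block 59, 143 without FASN KD-labelled replicate 4).

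Replicate numbers are shared by the groups but did not pair the libraries: same-numbered deviations correlated at -0.173 to 0.304. With the replicate block ADGRL3 in regular medium was at -5.34 with an edgeR adjusted p of 0.0173 and TENM1 at 2.40 with 0.518.

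The directions listed here turned in members that edgeR did not call. For FASN knockdown against control, ADGRL1 became -0.077 with the length offset, and on log2(TPM + 1) TENM3, ADGRL1 and ADGRL2 became -0.16, -0.47 and -0.091, and on log2(TPM + 0.1) -0.24, -0.53 and -0.10, scales on which the median of all genes moved to -0.14 and -0.30. For CSM against regular medium in FASN knockdown cells, TENM3, ADGRL1, ADGRL2 and ADGRL3 became 0.61, 0.92, 0.75 and 0.029 on log2(TPM + 1), and the first 3 became 0.73, 0.99 and 0.79 on log2(TPM + 0.1), with medians of all genes at 0.58 and 0.88. There TENM4 and ADGRL3 became -0.49 and 0.44 with the 7SL covariate, and -0.008 and 0.03 without the 2 libraries over 15% 7SL. In fits without 1 library the ranges for FASN knockdown against control were -0.33 to 0.42 for ADGRL1 and -0.005 to 0.33 for ADGRL2. For CSM in FASN knockdown cells they were -0.43 to 1.24 for TENM2, -0.03 to 0.39 for TENM4, -0.56 to 0.21 for ADGRL1, -0.31 to 0.005 for ADGRL2 and -0.84 to 0.21 for ADGRL3, and for CSM in control cells -0.001 to 0.35 for TENM3. For FASN knockdown against control after CSM, TENM3 became 0.35 and 0.41 on log2(TPM + 1) and log2(TPM + 0.1), and of 22 alternatives 19 kept the sign of TENM2 (lowest -0.68) and 16 that of ADGRL1 (lowest -0.27). For CSM against regular medium TENM1 became -0.20 in FASN knockdown cells with the 7SL covariate, and in control cells -0.18 on log2(TPM + 0.1) and -0.23 without control replicate 4 after CSM. The causes were not tested. Depth limits ADGRL3 in the libraries labelled FASN knockdown, at 13 to 121 counts.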

Other observations

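Other members of the lists, named here after their values were seen, had large differences in regular medium that edgeR did not call and DESeq2 did. ADGRG6, an adhesion receptor needed for myelination by Schwann cells, averaged 0.133 ± 0.163 CPM in FASN knockdown libraries and 8.79 ± 6.16 CPM in control libraries (SD, n = 3 each), a log2 fold change of -5.97 with an edgeR adjusted p of 0.17 (0.0183 by DESeq2). It was called in 2 of 20 alternatives, at adjusted p from 8.82e-15 to 0.456. UNC5C, a netrin receptor, averaged 0.0633 ± 0.0557 CPM in FASN knockdown libraries and 1.5 ± 0.558 CPM in control libraries (SD, n = 3 each), a log2 fold change of -4.63 with an edgeR adjusted p of 0.151 (0.0034 by DESeq2). It was called in 3 of 19 alternatives, at adjusted p from 0.0034 to 0.994. CDH2, N-cadherin, averaged 139 ± 54.7 CPM in FASN knockdown libraries and 39.4 ± 15.5 CPM in control libraries (SD, n = 3 each), a log2 fold change of 1.82 with an edgeR adjusted p of 0.223 (0.0147 by DESeq2).

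After CSM, ADGRG6 averaged 0.159 ± 0.171 CPM in FASN KD-labelled libraries and 3.21 ± 4.01 CPM in control libraries (SD, n = 4 each). UNC5C averaged 0.135 ± 0.0921 CPM in FASN KD-labelled libraries and 1.01 ± 0.745 CPM in control libraries. CDH2 averaged 103 ± 17.3 CPM in FASN KD-labelled libraries and 38.1 ± 21.9 CPM in control libraries.

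Antisense genes of the members had low or no counts. TENM3-AS1 ranged from 1.23 to 2.99 CPM and ADGRL1-AS1 from 1.45 to 3.93 CPM over the 14 libraries, TENM2-AS1 reached at most 0.847 CPM, and ADGRL3-AS1 had no counts. Without the strand, reads of a gene and its antisense partner cannot be told apart.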
